A study of Mus musculus with 3 samples.

Results

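Islet macrophages were examined in CD45+ cells sorted from the islets of NOD mice. They were chosen by the counts of a few marker transcripts in each cell, a count being a unique molecular identifier (UMI), which stands for 1 captured mRNA molecule. A cell with at least 1000 UMIs and under 10% of them from mitochondrial genes was called a macrophage when it held at least 5 UMIs of C1qa and C1qb together, at least 1 of Csf1r, none of Cd3d, Cd3e or Cd3g and at most 1 of Cd79a. In the 3 libraries 57 of 26142 kept cells met this rule, 25 in replicate 1, 8 in replicate 2 and 24 in replicate 3. The macrophages were set against the 5249 other kept cells without a CD3 UMI, mostly B cells, and against 101 conventional dendritic cells of the same libraries.

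Macrophages are tissue phagocytes that engulf dying cells, digest their contents in lysosomes and make complement, cytokines and chemokines, the secreted proteins that draw other leukocytes into a tissue. Their survival depends on CSF1R, the receptor for the growth factors CSF1 and IL-34, and C1q, the recognition unit of the classical complement pathway, is made largely by them. Every islet holds resident macrophages that lie against its blood vessels and present antigen on MHC class II. In the NOD mouse, a strain that develops autoimmune diabetes, they are among the first cells to change as T and B cells enter the islet.

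The study asked which checkpoint receptors restrain the T cells that attack islets, and the sorted leukocytes were sequenced with 10x Genomics 3′ single-cell libraries. All 3 libraries belonged to 1 group, female wild-type NOD mice of 15 to 16 weeks, with the islets of 2 to 3 mice pooled in each sample, so no condition was compared and the error given is the spread between libraries. Islets were freed with collagenase P and dispersed with trypsin. By the study's islet protocol the single cells were then incubated for 1 h in warm culture medium before further steps. Live CD45+ cells were sorted from the dispersed islets. The 3 libraries came from 2 independent experiments, so at least 2 of them shared one, and which library belonged to which was not given in the sources used here.

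Most of the cells carried the markers of their name. C1qa was read in 3627, 1670 and 2470 UMIs per 1000000 UMIs (CPM) of the macrophage sums of replicates 1, 2 and 3, and C1qb in 3004, 1400 and 2136 CPM. Csf1r was at 375, 463 and 485 CPM. These genes chose the cells, and the gate of the dendritic cells allowed at most 1 C1q UMI, so their levels are a description. The other cells without a CD3 UMI were those that failed the rule, and some of them held C1q UMIs. Adgre1, which encodes the F4/80 antigen and took no part in the choice, was at 280, 97.0 and 216 CPM, and 43 of the 57 cells held at least 1 UMI of it. In the dendritic cells it was at 1.84, 7.56 and 4.53 CPM and in the B cells at 1.37, 0.287 and 0.643 CPM.

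Some cells lay just inside and just outside the rule. Of the 57 macrophages 4 held 5 or 6 C1q UMIs, 12 held a single Csf1r UMI and 4 held 1 Cd79a UMI, and the median C1q count was 37, 37 and 35 in the 3 replicates, with a range from 5 to 104. The 4 cells at 5 or 6 C1q UMIs held no Adgre1 UMI, though all but 1 held Lyz2, another macrophage gene. The one in replicate 1 also held 14 UMIs of Ccr7, a gene of the dendritic cell list. Outside the rule, 1 cell failed only by holding 3 or 4 C1q UMIs, 7 only by lacking Csf1r and 2 only by holding more Cd79a. A further 13 cells failed only because they held a CD3 UMI, and their median depths of 12026, 19022.5 and 16588.5 UMIs lay above the macrophage medians. The 57 macrophages held 61.9% of the C1qa and C1qb UMIs of all kept cells, 51.2%, 58.5% and 81.3% in replicates 1 to 3.

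Transcripts that define other cell types were also counted in the macrophages. The rule itself limited Cd79a and the CD3 genes. Of 7 neutrophil genes only Csf3r was found, with 16 UMIs, and S100a8, S100a9, Retnlg, Mmp8, Cxcr2 and Ly6g had none. Of 7 natural killer genes only Nkg7 was found, with 2 UMIs, and Ncr1, Gzma, Gzmb and Prf1 were at 0. The summed level of the 10 B cell and plasma cell genes was 223, 129 and 184 CPM, against 44073, 16999 and 30494 CPM in the B cells, with Ighm the most abundant at 45 UMIs and Ms4a1, Pax5 and Mzb1 at 0. The 13 T cell genes summed to 31.8, 96.9 and 61.2 CPM, led by Cd4 with 9 UMIs. The 12 conventional dendritic cell genes summed to 280, 280 and 235 CPM, with Ccr7 ahead at 58 UMIs, against 1172, 1861 and 1798 CPM in the dendritic cells themselves, which were chosen by 6 of these 12 genes (Flt3, Zbtb46, Xcr1, Clec9a, Cd209a and Fscn1). The 5 plasmacytoid dendritic cell genes summed to 414, 495 and 447 CPM, no lower than the 366, 329 and 385 CPM of the dendritic cells and near the 464, 381 and 509 CPM of the other cells without a CD3 UMI, and Bst2, which interferon also induces, gave 134 UMIs. Acinar genes summed to 0, 10.8 and 14.1 CPM and endothelial and fibroblast genes to 6.36, 0 and 18.8 CPM, with Col1a1, Col1a2 and Col3a1 at 0.

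The share of macrophages among kept cells was 0.437%, 0.0870% and 0.214% in replicates 1, 2 and 3, with exact binomial 95% intervals of 0.283 to 0.644%, 0.0376 to 0.171% and 0.137 to 0.318% that cover counting error only. The mean was 0.246% ± 0.177 (SD, n = 3). Within the limits the study set on its cells, which include under 6000 UMIs, the shares were 0.345%, 0.0356% and 0.0743%, from 14, 1 and 4 macrophages, and with a stricter gate described further on 0.349%, 0.0435% and 0.143%. The intervals of replicates 1 and 2 did not overlap, while those of replicates 2 and 3 did. Among cells without a CD3 UMI the shares were 1.30%, 0.437% and 1.55%. Cells of different libraries shared 12, 18 and 29 barcodes by pair of libraries, and 0 barcodes were shared between the macrophages of any pair.

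Most of the macrophages were deep cells. At or over 6000 UMIs, where the study's own filter removed cells, lay 38 of the 57 (66.7%), 11 of 25, 7 of 8 and 20 of 24 by replicate. The same limit was reached by 44.6% of the other cells without CD3 UMIs, 46.5% of the B cells and 98.0% of the dendritic cells. All the study's limits together kept 14, 1 and 4 macrophages, 33.3% of the 57, against 46.9% of all kept cells. The median macrophage held 5426, 11693 and 8371 UMIs and 1771, 2637.5 and 2233.5 genes, and the summed libraries compared below held 157147, 92833 and 212532 UMIs. Ribosomal protein genes took a median of 17.2%, 16.9% and 13.3% of a macrophage's UMIs, in each library less than the 32.1%, 32.1% and 30.4% of the other cells without CD3 UMIs.

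**Figure D1:**
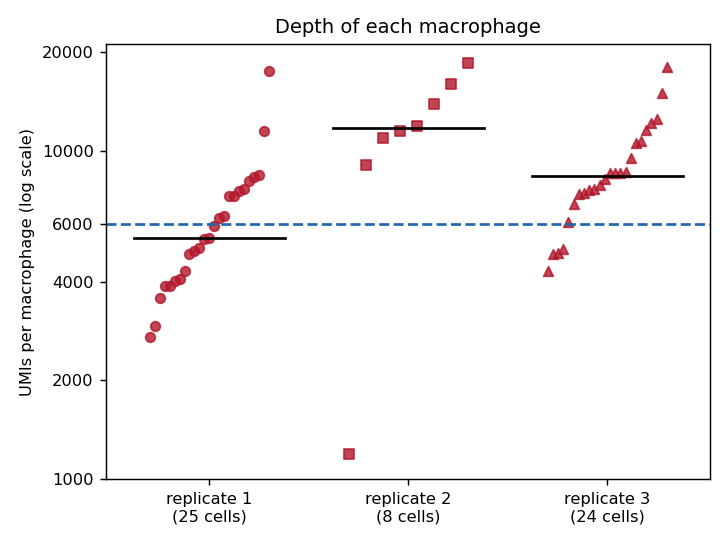
Each point is 1 macrophage, placed by its number of UMIs (log scale) in replicate 1 (25 cells), 2 (8 cells) and 3 (24 cells), sorted within a library, with black lines at the medians of 5426, 11693 and 8371 UMIs. The dashed line marks 6000 UMIs, and 38 of the 57 points lie at or above it.

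Against the other cells without CD3 UMIs, the largest increases in the macrophages included chemokine, scavenger receptor and complement genes. They were in Cbr2, a carbonyl reductase, Pf4, the chemokine CXCL4, Kitl, the ligand of the KIT receptor, Ccl7, Fcrls, Ccl2, Mrc1, the mannose receptor CD206, Col14a1, C1qc and Ccl12. Pf4 was at 611, 819 and 583 CPM in the macrophages and at 0.278, 0.0720 and 0.0928 CPM in the other cells, with no overlap of the groups, and the log2 fold change was 11.42 ± 0.43 (SE, edgeR's quasi-likelihood test, adjusted p = 1.13e-147). Macrophages, which were 57 of 26142 cells, held 85.5% of all Pf4 UMIs, 90.5% of those of Cbr2, 72.8% of those of Ccl7 and 69.9% of those of Mrc1. C1qc (chr4:136889804-136893065 on mm10), the third chain of C1q, was at 2291, 980 and 1252 CPM, in 54 of 57 cells. Since C1qa and C1qb chose the macrophages, its difference was partly set by that choice.

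In that fit, on replicates 1 and 3 with at least 10 macrophages each, 1138 of 10678 tested genes (10.7%) were higher in the macrophages and 1083 (10.1%) were lower at an adjusted p under 0.05. The fit of all 3 libraries called 1231 of 10381 higher (11.9%) and 1371 lower (13.2%). Taking replicate 3 out and replicate 2 in moved the total from 2221 to 1429. The median log2 fold change of all tested genes was -0.41. The 10 genes most reduced included the B cell and plasma cell genes Iglc2, Mzb1, Ms4a1, Ighg1 and Fcmr, all with 0 UMIs in the macrophages, so that Ms4a1, the CD20 antigen, was at least 66.2-fold lower and Iglc2 at least 85.7-fold lower when the macrophages were set at 3 UMIs over the group.

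The lists that describe phagocytes were higher almost throughout. Of 25 macrophage identity genes 23 passed the filter on low counts, 22 of them were higher, 0 lower, and only Csf2rb was not called, with a median log2 fold change of 3.69. Of 24 lysosome and lipid handling genes 23 were tested and 22 were higher, with a median of 2.55. Of 18 complement and clearance genes 17 were tested and 13 were higher, with a median of 5.30. Apoe, the lipid carrier apolipoprotein E, was at 7744, 2133 and 4244 CPM and was found in 50 of 57 cells, against 132, 162 and 154 CPM in B cells. Trem2, a receptor for lipids and dying cells, was at 312, 64.6 and 235 CPM, replicate 2 the lowest. Mertk, a receptor for dying cells that many tissue macrophages carry, had 3 UMIs in 3 cells, and Marco had none. Of 12 perivascular and stromal macrophage genes 8 were tested and 7 were higher, as were 5 of 6 tested against dendritic cells.

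Conventional dendritic cells, which also present antigen and lack C1q, were the nearest cells to compare. They were gated by at least 1 Flt3 UMI and at least 2 UMIs of Zbtb46, Xcr1, Clec9a, Cd209a, Itgax and Fscn1, with at most 1 C1q UMI, and numbered 55, 16 and 30. Of 4189 genes tested in replicates 1 and 3, 673 (16.1%) were higher and 442 (10.6%) lower in the macrophages, with a median log2 fold change of -0.04. All 3 libraries gave 568 higher (17.7%) and 347 lower (10.8%) of 3217. With replicate 2 in place of replicate 3 the total moved from 1115 to 708. The 10 largest increases included Ccl4, Ccl7, Ccl3, Apoe, Pf4, Cxcl2, C1qc, C3ar1 and Ccl2. Both gates used C1q counts, so the difference in C1qc was partly set by the choice of cells. C1qc is also counted among the higher genes of the identity and complement lists below. The 10 largest decreases were in Il4i1, H2-Ob, Ffar2, Cacna1s, Adam23, Plet1, Ifitm6, Il1r2, Ppp1r14a and Cd7. Il1r2, the decoy receptor for IL-1, was at 6.36, 21.5 and 9.41 CPM in macrophages and at 772, 881 and 1594 CPM in dendritic cells.

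**Figure D2:**
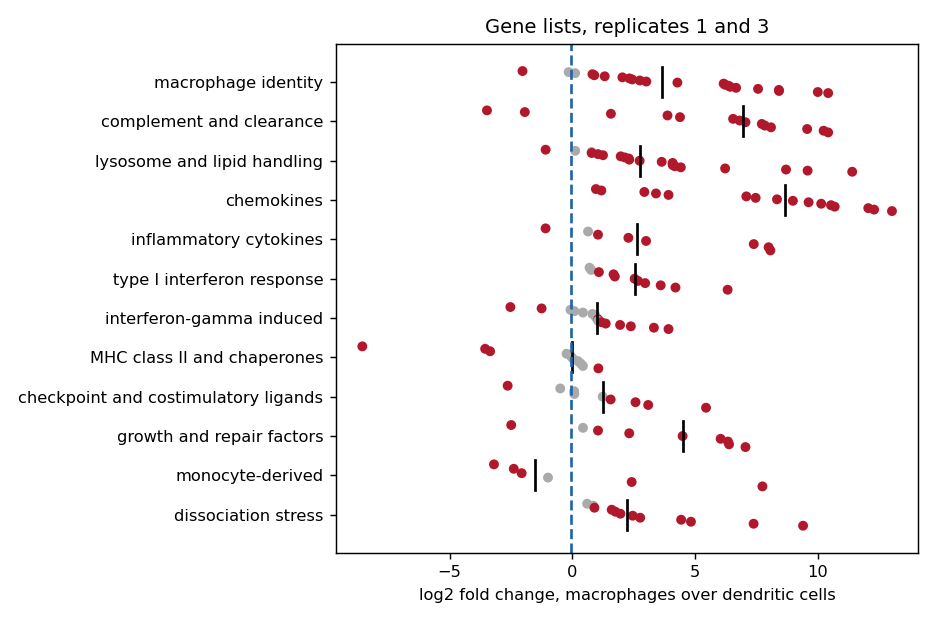
Each point is a gene of the list named at the left, placed by its log2 fold change of macrophages over dendritic cells in the fit of replicates 1 and 3, with red points past an adjusted p of 0.05 and grey points not called. Black bars are list medians (8.67 for the chemokines, -0.02 for MHC class II), and the dashed line is at the median of all tested genes, -0.04.

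Identity genes again stood higher against dendritic cells, 19 of 22 tested with 1 lower and a median log2 fold change of 3.65. Lyz2, lysozyme, was at 5746, 6883 and 6046 CPM against 134, 299 and 27.2 CPM, and Cx3cr1, the fractalkine receptor, was at 178, 43.1 and 146 CPM against 3.67, 0 and 0 CPM. The gene that was lower was Csf2rb, a chain of the GM-CSF receptor, with 115, 356 and 108 CPM against 300, 620 and 698 CPM (log2 fold change -2.03 ± 0.40). Of 21 lysosome and lipid handling genes 18 were higher and Cd9 lower, and of 14 complement and clearance genes 12 were higher, Timd4 and Cfp being lower. The complement receptors stood far apart. C3ar1, the receptor for C3a, was at 356, 259 and 541 CPM in the macrophages with 0 UMIs in the dendritic cells, at least 176-fold higher on a floor of 3 UMIs over the dendritic cells. C5ar1, the receptor for C5a, was at 433, 334 and 569 CPM against 1.84, 0 and 2.27 CPM.

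Among the summed lists, chemokines differed most in CPM between the macrophages and the dendritic cells. The 18 genes of the list summed to 32645, 29849 and 35166 CPM in the macrophages, against 1523, 2197 and 2778 CPM in the dendritic cells and 78.9, 64.7 and 60.1 CPM in the B cells. All 16 tested against dendritic cells were higher, with a median log2 fold change of 8.67, as were all 17 tested against the other cells, with a median of 7.06, and Ccl17 had no UMI. Ccl4 (chr11:83662584-83664683), a chemokine that attracts T cells, had the most UMIs, at 12797, 4223 and 9086 CPM against 1.84, 0 and 0 CPM in dendritic cells (log2 fold change 13.03 ± 0.39, adjusted p = 2.23e-50 by edgeR's quasi-likelihood test). The dendritic cells held fewer Ccl4 UMIs than the floor of 3, so this fitted value is not an exact fold. Ccl2 and Ccl7, ligands of the monocyte receptor CCR2, were at 1101, 1368 and 2108 CPM and at 1483, 1939 and 2268 CPM, and in the dendritic cells Ccl7 had 0 UMIs. The macrophages exceeded the dendritic cells in every library for each of these. Their cells were not alike, since after thinning each cell to 2000 UMIs Ccl4 was found in 84%, 42.9% and 70.8% of macrophages and Ccl2 in 48%, 42.9% and 50%, while none of the dendritic cells held either gene and B cells held Ccl4 in 0.901%, 0.751% and 0.475%.

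**Figure D3:**
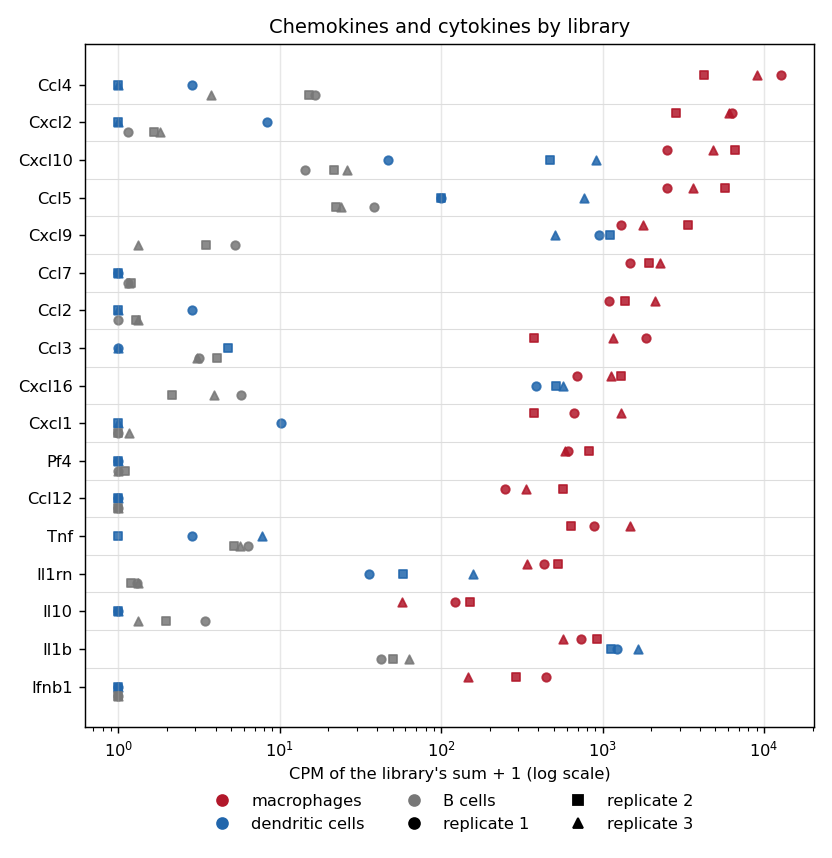
Points give the level of each gene in the summed cells of 1 library, as CPM + 1 on a log scale, for macrophages (red), dendritic cells (blue) and B cells (grey), with circles, squares and triangles for replicates 1, 2 and 3. The macrophage points of Ccl4 lie between 4223 and 12797 CPM, and Il1b is the gene shown in which the dendritic cells lie to the right.

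The neutrophil attractants Cxcl1 and Cxcl2, ligands of CXCR2, were also in this group. Cxcl2 was at 6332, 2844 and 6070 CPM against 7.35, 0 and 0 CPM in dendritic cells (log2 fold change 10.53 ± 0.40), although 31.0% of its UMIs came from 1 cell of replicate 3. Cxcl1 was at 668, 377 and 1308 CPM, with 46.4% of its UMIs in 1 cell, and this was the same cell. These genes are shown with their promoters because each holds the letters GGGA, any 1 base and TTTCC in a row, a form of the NF-kB motif, within 250 bases before its start. On either strand these letters were found in 0.356% of 32851 RefSeq promoters of that length (GRCm38.p6) and in 2 of the 13 chemokine promoters matched, 15.4%. The match is a description of the letters and not of binding. Capitals mark it, 97 bases before the start of Cxcl2 (chr5:90903649-90903898, plus strand) and 71 before that of Cxcl1 (chr5:90890995-90891244, plus strand).
Cxcl2: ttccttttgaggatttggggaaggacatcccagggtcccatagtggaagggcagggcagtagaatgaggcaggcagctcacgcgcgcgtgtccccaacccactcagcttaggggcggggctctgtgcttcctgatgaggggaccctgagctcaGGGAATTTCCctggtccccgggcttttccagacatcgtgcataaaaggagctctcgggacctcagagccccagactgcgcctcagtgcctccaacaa
Cxcl1: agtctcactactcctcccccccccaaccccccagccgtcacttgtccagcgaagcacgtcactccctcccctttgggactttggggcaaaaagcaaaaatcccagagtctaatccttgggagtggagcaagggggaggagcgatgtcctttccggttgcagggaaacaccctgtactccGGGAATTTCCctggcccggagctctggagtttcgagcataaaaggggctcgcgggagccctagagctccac

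The ligands of CXCR3, a receptor of effector T cells, were shared with the dendritic cells. Cxcl10 was at 2488, 6571 and 4846 CPM against 45.9, 469 and 912 CPM (log2 fold change 3.92 ± 0.35). Cxcl9 (chr5:92321347-92328079) was at 1305, 3361 and 1779 CPM against 944, 1112 and 503 CPM (1.18 ± 0.29, adjusted p = 0.000811 by edgeR's quasi-likelihood test), a smaller difference. The 4 macrophages at 5 or 6 C1q UMIs, the lowest count the rule allowed, held 48 of 205, 215 of 312 and 217 of 378 of its UMIs. Without these cells Cxcl9 was at 1124, 1216 and 828 CPM in the macrophages, values that overlapped those of the dendritic cells, and its call was lost (log2 fold change 0.55 ± 0.23, adjusted p = 0.126 by edgeR's quasi-likelihood test). At 2000 UMIs a cell Cxcl9 was found in 20%, 85.7% and 29.2% of macrophages and in 35.2%, 62.5% and 30% of dendritic cells, and these shares overlapped. In B cells the shares were 0.721%, 0.15% and 0.119%.

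Genes of the type I interferon response, which cells switch on after interferon alpha or beta binds its receptor, were higher in the macrophages. Of 11 tested against dendritic cells 9 were higher and 0 lower (median log2 fold change 2.54), and of 13 tested against the other cells 10 were higher. Rsad2, which encodes the antiviral enzyme viperin, was at 1699, 2855 and 3439 CPM against 3.67, 102 and 86.2 CPM in dendritic cells (log2 fold change 6.33 ± 0.39). Ifit1, which binds viral RNA, was at 974, 1239 and 1186 CPM against 9.19, 140 and 352 CPM. For both genes the lowest macrophage library lay above the highest dendritic library. Irf7 was not called, at a log2 fold change of 0.77 ± 0.41. Interferon-gamma induced genes were more mixed, 7 of 17 tested being higher, 2 lower, including Ifngr1, a chain of the interferon-gamma receptor, and 8 not called, with a median of 0.99. Nos2 and Ido1, enzymes that interferon-gamma can induce in macrophages, had 0 UMIs.

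The promoters of Cxcl10, Rsad2 and Ifit1 are shown because they hold the letters GAAA, any 2 bases and GAAA in a row, the core of the interferon-stimulated response element. Searched on both strands within 250 bases before the start, these letters were found in 5 of the 9 type I interferon genes matched by symbol (55.6%) and 9 of the 15 interferon-gamma induced genes (60%), against 3.46% of all 27025 genes counted in the same way, a gene counting when any of its promoters held them, and Cxcl10 was among the 2 of 13 chemokines with them. The genes were listed for their known induction by interferon, so the shares describe the lists. Capitals mark each match, read from the other strand as TTTC, 2 bases and TTTC in Rsad2 and Ifit1, 213 bases before the start of Cxcl10 (chr5:92348890-92349139, minus strand), 120 before Rsad2 (chr12:26456453-26456702, minus strand) and 104 and 85 before Ifit1 (chr19:34640639-34640888, plus strand).
Cxcl10: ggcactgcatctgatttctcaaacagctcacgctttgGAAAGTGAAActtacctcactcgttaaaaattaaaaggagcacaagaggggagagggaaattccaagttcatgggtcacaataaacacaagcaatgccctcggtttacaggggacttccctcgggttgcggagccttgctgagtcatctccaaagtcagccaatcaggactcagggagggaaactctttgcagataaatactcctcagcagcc
Rsad2: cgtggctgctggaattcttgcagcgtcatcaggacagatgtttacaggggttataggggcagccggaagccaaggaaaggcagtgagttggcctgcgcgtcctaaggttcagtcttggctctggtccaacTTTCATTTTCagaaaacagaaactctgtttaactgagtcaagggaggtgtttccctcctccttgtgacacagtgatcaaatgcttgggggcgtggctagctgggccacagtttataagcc
Ifit1: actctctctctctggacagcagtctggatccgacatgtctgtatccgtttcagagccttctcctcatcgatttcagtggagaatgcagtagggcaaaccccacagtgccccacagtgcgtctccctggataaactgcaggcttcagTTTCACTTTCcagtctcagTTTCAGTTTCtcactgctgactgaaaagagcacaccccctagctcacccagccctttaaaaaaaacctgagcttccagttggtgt

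Ifnb1 itself, the gene for interferon beta, was read in the macrophages. It was chosen for description after its values were seen. It lies at chr4:88522025-88522774 (mm10) and had 128 UMIs in 19 of the 57 cells, 445, 291 and 146 CPM by replicate, with 21.1% of the UMIs in 1 cell. The dendritic cells and the B cells had 0 UMIs in every library, so the macrophages were at least 115-fold higher than the dendritic cells on a floor of 3 UMIs over that group. The macrophages held 63.4% of the Ifnb1 UMIs of all kept cells.

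Among inflammatory cytokines the macrophages and the dendritic cells differed gene by gene. Of 8 tested 6 were higher in macrophages (Tnf, Il10, Il1a, Nlrp3, Il1rn and Tgfb1) and 1, Il1b, was lower. Tnf, tumour necrosis factor, was at 878, 636 and 1487 CPM against 1.84, 0 and 6.80 CPM (log2 fold change 8.08 ± 0.50). Il1rn, the secreted antagonist of the IL-1 receptor, was at 433, 528 and 339 CPM against 34.9, 56.7 and 156 CPM. Il10, an inhibitory cytokine, was at 121, 151 and 56.5 CPM from 11 cells, against 0 UMIs in dendritic cells. Il1b was at 738, 926 and 569 CPM against 1218, 1127 and 1658 CPM, with no overlap (log2 fold change -1.09 ± 0.29, adjusted p = 0.002 by edgeR's quasi-likelihood test). That call was lost without replicate 1 (-0.83) and without replicate 3 (-0.39), as was the call of Tgfb1 without replicate 1 (0.78), each with replicate 2 in its place. Il12b, a subunit of IL-12, had 0 UMIs in the macrophages.

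The level of MHC class II in the macrophages lay close to that in the dendritic cells. The 10 genes of the list in the files summed to 52422, 60033 and 54044 CPM, against 49348, 61187 and 59370 CPM in the dendritic cells and 20058, 30898 and 28888 CPM in the B cells. H2-Aa, a chain of the I-A molecule, was at 10532, 13950 and 11363 CPM against 10310, 13553 and 13315 CPM (log2 fold change -0.06 ± 0.17, not called), and 6 of 10 genes tested were not called. Among the subunits of the DM and DO chaperones, which load and edit peptides, 3 were lower and 1 was higher, while H2-DMa, at 554, 592 and 442 CPM against 514, 227 and 313 CPM, was not called (0.34 ± 0.33). H2-Ob had 0 UMIs against 127, 189 and 150 CPM in dendritic cells, at least 22.8-fold lower, H2-DMb2 was at 44.5, 97.0 and 37.6 CPM against 334, 465 and 535 CPM, and H2-Oa was lower too. H2-DMb1, the near-identical neighbour of H2-DMb2, was the 1 gene higher, at 515, 302 and 424 CPM against 325, 235 and 161 CPM, a call lost without replicate 1 (log2 fold change 1.01) and without replicate 3 (0.66). Because these genes are so alike, both values are uncertain, and how their reads were assigned was not tested.

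Ligands of checkpoint and costimulatory receptors were read at low to moderate counts. Cd274, which encodes PD-L1, the ligand of PD1, was at 159, 291 and 263 CPM against 134, 306 and 288 CPM in dendritic cells (log2 fold change 0.08 ± 0.37), and the groups overlapped. Pvr, which encodes CD155, the ligand of TIGIT and CD226, had 13 UMIs in 10 macrophages, 38.2, 10.8 and 28.2 CPM, against 18.4, 34.0 and 47.6 CPM (0.08 ± 0.67). At 13 UMIs a difference of that size was not detectable, and neither p shows that the cells were alike (adjusted p = 0.912 and 0.955, edgeR's quasi-likelihood test). Nectin2 had 1 UMI and Nectin3 none. Cd80, a ligand of CD28 and CTLA4, was lower, at 12.7, 43.1 and 18.8 CPM against 64.3, 60.5 and 138 CPM, a call lost without replicate 3 (log2 fold change -1.23), whereas Cd86, the other such ligand, was at 331, 431 and 466 CPM and was not called. Vsir, Lgals9, Cd40 and Tnfsf13 were higher than in dendritic cells, 4 of 9 tested, and Vsir, which encodes the inhibitory ligand VISTA, was at 102, 43.1 and 51.8 CPM against 11.0, 7.56 and 6.80 CPM.

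Growth and repair factors were higher in 7 of 9 tested against dendritic cells (Gas6, Mmp14, Timp2, Pdgfb, Pdgfa, Grn and Tgfb1), and Vegfa was lower, a call lost without replicate 1. The monocyte-derived list summed to 1737, 2499 and 734 CPM, against 5984, 5071 and 6254 CPM in the dendritic cells and 2063, 1711 and 1955 CPM in the other cells without a CD3 UMI, below the macrophages in replicate 2 and above them in replicates 1 and 3. Of this list 4 of 12 genes had no UMI, among them Chil3, Fn1 and Ace. F13a1 and Ccr2 were higher than in dendritic cells, and S100a4, S100a6 and Plac8 were lower. S100a4 was at 484, 754 and 235 CPM against 2760, 2772 and 3757 CPM (log2 fold change -3.20 ± 0.29). Plac8 was at 382, 851 and 113 CPM against 1180, 760 and 721 CPM, values that overlapped, and its call was lost without replicate 1 (-1.06) and without replicate 3 (-0.61). Of 3 cell cycle genes tested against dendritic cells Pcna and Mki67 were higher, with Mki67 at 57.3, 10.8 and 70.6 CPM from 11 cells. Top2a had 2 UMIs, and Cdk1, Ccnb1 and Rrm2 had none. Of 10 tested against the other cells without a CD3 UMI, Pcna and Mki67 were higher, Top2a and Stmn1 were lower and 6 were not called. In the fit of all 3 libraries against those cells Mki67 was not called.

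Immediate early and heat shock genes, which enzymatic dispersal of tissue is known to induce, moved with the macrophages. The 12 genes summed to 8419, 3695 and 11363 CPM, against 2763, 1970 and 2494 CPM in dendritic cells and 1680, 1135 and 1005 CPM in B cells, with Nfkbia the most abundant at 847 UMIs, and 10 of the 12 were higher than in dendritic cells. The libraries differed widely. Hspa1a, an inducible HSP70 chaperone, was at 407, 10.8 and 1670 CPM, and Jun was at 242, 0 and 772 CPM, with replicate 2 below the others for both. The chemokine sum in replicate 2, 29849 CPM, was close to that of the other replicates, while Ccl4, Ccl3, Cxcl1 and Cxcl2 were lowest there. For Cxcl2 this order rested on 1 cell of replicate 3, described below. Without that cell Cxcl2 was at 2495 CPM in replicate 3, below replicate 2, and the chemokine sum of replicate 3 was 27038 CPM. The part of the immediate early and heat shock response, or of the incubation, in the chemokine, cytokine and interferon results was not tested.

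**Figure D4:**
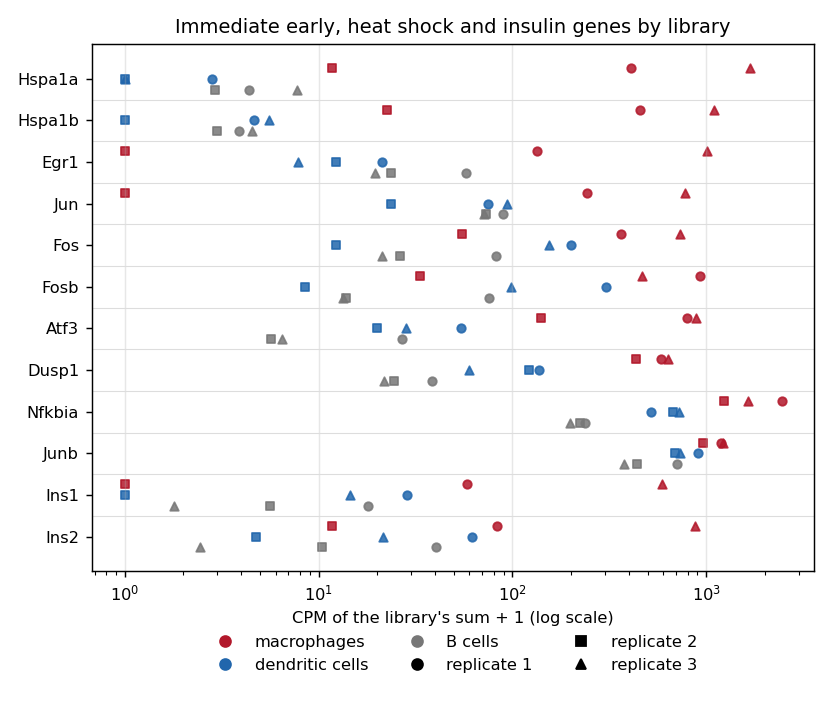
Levels of 10 immediate early and heat shock genes and of Ins1 and Ins2 in the summed cells of each library, as CPM + 1 on a log scale, for macrophages (red), dendritic cells (blue) and B cells (grey), with circles, squares and triangles for replicates 1, 2 and 3. Macrophage Hspa1a is at 407, 10.8 and 1670 CPM, and the red squares of replicate 2 lie at or near the left for Hspa1a, Egr1 and Jun.

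Hormone transcripts of the beta cell were concentrated in a single cell. Ins2 was at 82.7, 10.8 and 870.5 CPM in the macrophages, but 92.0% of its 199 UMIs and 93.3% of the 134 of Ins1 came from 1 cell, and Ins2 was found in 14 of the 57. The 9 islet endocrine genes summed to 172, 10.8 and 1543 CPM. In the other cells without a CD3 UMI they summed to 795, 17.3 and 4810 CPM, and against those 5 of 8 tested (Gcg, Pyy, Iapp, Ins2 and Ins1) were lower and none higher. Of these only Gcg was still called without replicate 3. Ins1 and Ins2 were called higher than in dendritic cells, and without replicate 3 the call of Ins2 was lost and its log2 fold change went from 3.01 to 0.65. Other genes whose UMIs came mostly from 1 cell were Mmp12 (76.3% of 76 UMIs), Ly6c2 (72.7% of 22) and Mmp13 (52.6% of 57).

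The cell with the insulin UMIs, in replicate 3, also held the 1-cell shares of Cxcl2 and Cxcl1. It had 12111 UMIs, 5.70% of the UMIs of the macrophages of that replicate, with 27.5% of their chemokine UMIs and 33.9% of their immediate early and heat shock UMIs. Without it the chemokine sum of replicate 3 was 27038 CPM in place of 35166 and the stress sum 7968 in place of 11363, and Cxcl2 was at 2495 CPM in place of 6070. Ins2 was then no longer called against dendritic cells (0.10) and Ins1 was not tested, while Ccl4, Ccl3, Cxcl1 and Cxcl2 were still called higher, Cxcl2 at 10.12 ± 0.32 on the log2 scale. Both insulin genes stayed lower than in the other cells without a CD3 UMI, and the comparison of cells with and without Mrc1, Folr2 or Lyve1 described next gave 93 calls in place of 84.

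The macrophages were not uniform. Mrc1, found in 30 cells, Folr2 with 8 UMIs and Lyve1 with 4, markers of macrophages that lie along vessels and in connective tissue, were used to divide them. At least 2 UMIs of these 3 genes were held by 10, 3 and 15 cells, 28 in all, and none by 12, 5 and 9, 26 in all, leaving 3 cells with 1 UMI, all in replicate 1. Just inside the threshold lay 8 cells with 2 UMIs. The median depths were 7080 UMIs for the 28 and 7979 for the 26, and by replicate 4644, 10961 and 8566 UMIs with the markers against 7414, 13842 and 8180 without. Because 3 of these 6 sums had under 10 cells and only replicate 1 had at least 10 in both, the test was run on sums of at least 3 cells, a choice made after the data were seen.

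Of 1117 genes tested in the 3 libraries, 64 (5.73%) were higher in the cells with Mrc1, Folr2 or Lyve1 and 20 (1.79%) were lower. Scaling by total UMIs gave 62 higher and 33 lower and moved the median log2 fold change of all genes from 0.04 to -0.13, and leaving out the 4 cells at 5 or 6 C1q UMIs, all without the markers, left 26 calls in place of 84, of 901 genes tested. A stricter gate left 32 calls, but it left replicate 2 with 1 cell with the markers, so that fit used replicates 1 and 3, where the rule itself gave 85 calls. The stricter gate removed macrophages with a UMI of Cd79a, Cd79b, Ms4a1, Trac, Trbc1, Trbc2 or Jchain and kept 40 of the 57, 20, 4 and 16 by replicate. The most increased were Ccl12, Mmp13, a collagenase, Cxcl2, Mgl2, a lectin, and Cbr2. Ccl12 was at 718, 1680 and 543 CPM in the cells with the markers and at 0, 0 and 44.8 CPM in those without (log2 fold change 5.73 ± 0.83, adjusted p = 0.0156 by edgeR's quasi-likelihood test), and Mgl2 was at 738, 571 and 389 CPM against 21.5, 16.3 and 33.6 CPM. Ccl2 was at 2295, 3963 and 3447 CPM against 409, 32.6 and 258 CPM, Ccl7 at 3711, 5707 and 3480 CPM against 344, 0 and 594 CPM, and Tnf at 1856, 1871 and 2360 CPM against 387, 0 and 280 CPM. In each of these genes every library of the first part lay above every library of the second. Of 14 chemokines tested 6 were higher (Ccl12, Cxcl2, Ccl7, Ccl3, Ccl2 and Cxcl1) and 1, Cxcl9, was lower, with a median of 3.67.

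Among type I interferon genes, 5 of 11 tested were higher in the cells with the markers (Usp18, Ifit1, Oasl2, Isg15 and Ifi204). None was lower and 6 were not called, and the median log2 fold change was 2.13. Ifit1 was at 2334, 3615 and 1785 CPM against 237, 16.3 and 359 CPM. Ifnb1 was at 1018, 856 and 219 CPM against 32.3, 0 and 44.8 CPM, and was found in 8 of 10, 1 of 3 and 7 of 15 cells with the markers and in 1 of 12, 0 of 5 and 1 of 9 without them. With the stricter gate, and so with replicates 1 and 3 alone, the calls of all 5 interferon genes, of Ifnb1, Cxcl2 and Ccl3 were lost, with log2 fold changes of 2.91 for Ifit1, 4.49 for Ifnb1 and 4.10 for Cxcl2. Leaving out replicate 2 under the rule lost those of Oasl2 (1.64) and Ifi204 (1.57) and of none of the others. Without the cells at 5 or 6 C1q UMIs the calls of Ifit1 (3.59), Isg15 (2.30), Oasl2 (2.41), Ifi204 (1.96), Tnf (3.27), Ccl3 (3.88) and Ccl7 (3.85) were lost, Usp18 was not tested, and those of Ifnb1, Ccl12, Cxcl2, Ccl2 and Mgl2 held. Among the stress genes, 7 of 11 tested were higher in the cells with the markers and 4 were not called, and their sum was 13329, 7578 and 16710 CPM against 5800, 1697 and 3978 CPM. Their part in the chemokine and interferon differences was not tested.

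The cells without these markers were marked by other genes. Cxcl9 was at 2206, 4601 and 4112 CPM in them and at 0, 951 and 89.2 CPM in the cells with the markers (log2 fold change -4.32 ± 0.85, adjusted p = 0.0275 by edgeR's quasi-likelihood test), and it was found in 6 of 12, 5 of 5 and 6 of 9 against 0 of 10, 3 of 3 and 4 of 15 cells. The cells at 5 or 6 C1q UMIs held 480 of the 895 Cxcl9 UMIs of all macrophages, and without them Cxcl9 was at 2082, 1390 and 2106 CPM in the cells without the markers and was not called (-3.42 ± 1.07, adjusted p = 0.107 by edgeR's quasi-likelihood test). Plac8 was at 646, 1273 and 269 CPM against 0, 31.7 and 0 CPM. Ccr7, the receptor that guides cells to lymph nodes and a gene of the dendritic cell list, was at 194, 196 and 314 CPM, from 8 cells, against 0 UMIs, S100a4 was at 699, 1060 and 415 CPM against 120, 159 and 105 CPM, and Ly6e was lower in the cells with the markers too. The calls of S100a4 and Ly6e were lost with the stricter gate on replicates 1 and 3 (log2 fold changes -2.04 and -3.85), and that of S100a4 without the cells at 5 or 6 C1q UMIs (-1.62), where Plac8 and Ly6e were still called and Ccr7 was not tested. No macrophage identity gene of 19 tested and no MHC class II gene of 6 tested was called, H2-Aa being at 8640, 15092 and 10942 CPM with the markers and at 11912, 13362 and 11944 CPM without. The dendritic cell list summed to 377, 277 and 437 CPM in the cells without the markers and 120, 285 and 89.2 CPM in those with them. Single cells carried much of the first sums, with 19 of 35, 12 of 17 and 28 of 39 UMIs of the list in 1 cell of each replicate and at most 5 in any other. The same 3 cells held 14 of 18, 9 of 12 and 27 of 28 of the Ccr7 UMIs, and without them Ccr7 was at 53.0, 70.0 and 13.5 CPM and the list at 212, 117 and 148 CPM.

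**Figure D5:**
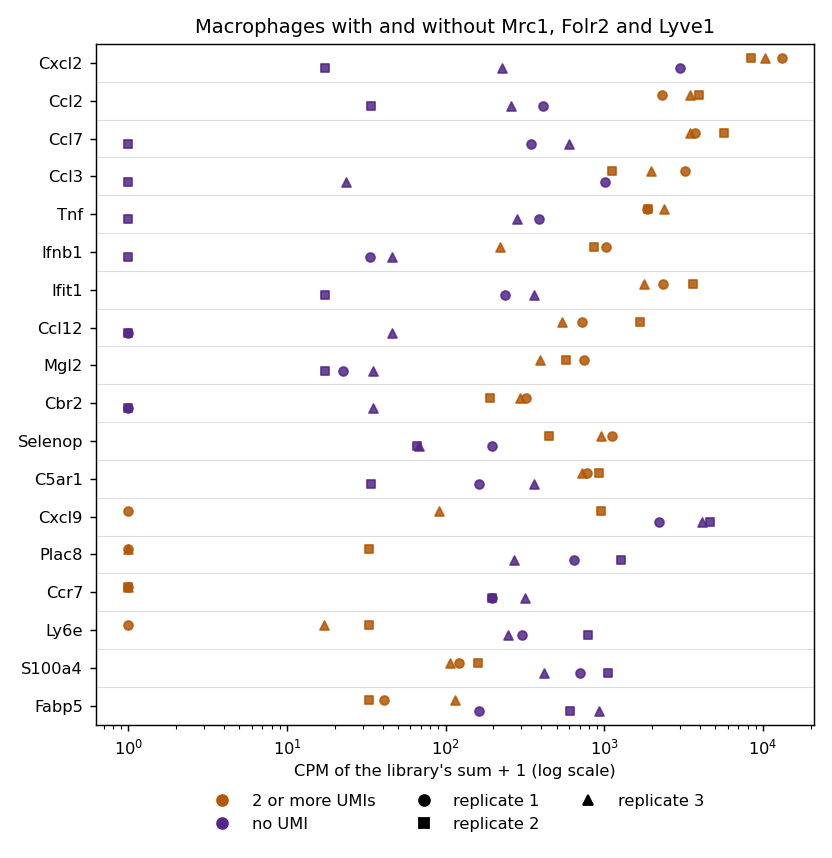
Levels in the summed macrophages of each library, as CPM + 1 on a log scale, for cells with at least 2 UMIs of Mrc1, Folr2 and Lyve1 (orange) and with none (purple), with circles, squares and triangles for replicates 1, 2 and 3. The genes from Cxcl2 to C5ar1 lie further right in the orange cells, and those from Cxcl9 to Fabp5 further right in the purple cells.

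The macrophages were also divided by Cxcl9 and by depth, and the number of calls depended on the settings. Cxcl9 was found in 24 of 57 cells, 6, 8 and 10 by replicate, and 22 of these 24 lay at or over 6000 UMIs, with a median of 9823 UMIs against 5887 in the cells without it. By replicate the medians were 7817 against 4968 UMIs in replicate 1 and 8602.5 against 7761.5 in replicate 3, where 10 of the 14 cells without Cxcl9 also lay at or over 6000 UMIs, and in replicate 2 all 8 cells held it. Between these parts edgeR's quasi-likelihood test called 0 of 1571 genes (0%), with 250 at an unadjusted p under 0.05, while DESeq2 called 17 of 411, the stricter gate 33 of 1161 and the fit without a filter on low counts 93. Between macrophages at or over 6000 UMIs and those under it, 1 of 1212 genes was higher in the deep cells (0.0825%), Cxcl9, and 4 were lower (0.33%), Hspa1b, Hspa1a, Apoe and Gm42418, a gene that overlaps a ribosomal RNA sequence. Cxcl9 was 6.31 higher on the log2 scale in the deep cells (adjusted p = 0.000704, edgeR's quasi-likelihood test). In the shallow cells of replicates 1 and 3 it was held by 1 cell, with 2 UMIs. That is under the floor of 3 UMIs, so the fitted value is not an exact fold. Scaling by total UMIs moved the median of all genes from 0.03 to 0.16 and left 0 calls, while RLE scaling gave 20. Both tests used replicates 1 and 3, with sums of at least 3 cells, a choice made after the data were seen.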

How the data were processed

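The authors deposited UMI counts per gene and cell, made with Cell Ranger 6.0.1 (submitters' processing notes) on mm10. The 3 libraries held 5844, 9537 and 11566 cells and 32285 genes, with 33851381, 74775394 and 80806452 UMIs. Cells with at least 1000 UMIs and under 10% mitochondrial UMIs were kept (5727, 9199 and 11216) with no upper limit. In the study a cell stayed in with 200 to 5000 genes, fewer than 6000 UMIs, less than 5% of them mitochondrial and more than 5% ribosomal, and doublets were removed. No doublet caller was run here. Gene positions were taken from GENCODE by gene ID (GRCm38) and promoter sequences from RefSeq (GRCm38.p6).

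Raw counts were summed per library and population and tested with edgeR 4.0.16 in R 4.3.3 (TMM, filterByExpr, quasi-likelihood test, Benjamini-Hochberg adjustment over all tested genes, threshold 0.05) with the library as a block, on libraries with at least 10 cells in both populations. Genes of the rules that chose the cells were left out of the tests. Populations of 1 library come from the same mice, and the deviations of macrophages and dendritic cells correlated at 0.30, 0.15 and 0.05 within replicates 1 to 3 and at -0.21 to 0.10 between different libraries. With 1 pool of mice per library, p-values do not extend beyond these samples. The fits on replicates 1 and 3, with the library as a block, left 1 residual degree of freedom per gene. Their p-values therefore rest largely on a spread that edgeR estimates across genes, and hardly on the spread of a gene between libraries. Levels are UMIs per 1000000 UMIs of the summed population. Shares of cells with a UMI were taken after thinning each cell to 2000 UMIs, which left out 1 macrophage, 1 dendritic cell and 13 B cells. B cells were gated by at least 3 Cd79a UMIs and 1 Cd79b UMI.

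Named genes were those of 23 lists (284 of 287 genes in the files) and, per comparison, the 10 (within macrophages 5) genes with the largest called change in each direction, the same sign in every library and at least 50 CPM in the higher population. Some of the genes this rule names are not reported here. Members and lists were chosen with earlier results of these data known. Alternatives were DESeq2 1.42.0, RLE and total-UMI scaling, no filter, no replicate block, a stricter gate, the rule without its cells at 5 or 6 C1q UMIs or the 1 cell with 100 or more insulin UMIs, all 3 libraries and each library left out. Tested on simulated data with 200 genes changed by a log2 fold of 2, the fit found 47.5% with 2 false calls (macrophages against other cells, 10202 genes) and 54.5% with 8 false calls (against dendritic cells, 3495 genes). The changed genes were drawn from the most abundant ones, and both populations otherwise shared 1 profile. The simulated spread was the same for every gene, with no difference between libraries. These rates may therefore not hold for the real sums of few cells.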

Additional observations from a re-analysis of the deposited data

How the results depend on the processing

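With 57 macrophages, 8 of them in replicate 2, depth and cell number limit every result, and genes with few UMIs could not be compared. The 2221 genes called against the other cells without CD3 UMIs became 1171 with DESeq2, and ranged from 1429 to 1672 when replicate 3 or 1 was left out with replicate 2 put in. The 1115 called against dendritic cells became 317 with DESeq2 and ranged from 708 to 916. Without the replicate block, which pairs the populations of a library, the counts were 1634 and 758, 72 in place of 84 for the cells with Mrc1, Folr2 or Lyve1, 1 in place of 5 for deep against shallow cells, and 0 again for the Cxcl9 split. Of the genes listed or named by the rule, 194 were called against the other cells and 146 against dendritic cells. Without the block 30 and 22 lost their call, and 44 and 64 lost it with DESeq2. These genes are not named here, so calls printed above may be among them. The 84 calls became 26 without the 4 macrophages at 5 or 6 C1q UMIs and 32 with the stricter gate, which had enough cells in replicates 1 and 3 only, where the rule gave 85. For deep against shallow cells the 5 calls became 3 with DESeq2, 20 with RLE scaling, 0 with total UMIs, 8 without a filter and 1 with the stricter gate. For the Cxcl9 split the 0 calls became 17 with DESeq2, 4 with RLE scaling, 93 without a filter and 33 with the stricter gate. The cause of these changes was not tested. The mean share of macrophages with Mrc1 went from 40.2% at 2000 UMIs a cell to 44.0% at 4000 and 49.3% without thinning, on 56, 51 and 57 macrophages. Against the other cells, the log2 fold change changed sign for Ly6c2 (from -0.93 to 1.65 with all 3 libraries, 1.83 without replicate 1 and 3.10 without replicate 3), Socs1 (from 1.35 to -0.16 without replicate 1, 0.87 without replicate 3), Timd4 (from -0.36 to 1.42 without replicate 1 and 1.95 without replicate 3), S100a4 (from -0.43 to 0.38 and 0.82) and Ier2 (0.01, then 0.19 and -1.24). Of these 5 only Socs1 was called at first. The share of macrophages among kept cells ranged from 0.150% to 0.325% with a replicate left out. Fits on cells under 6000 UMIs were not run because at most 1 library had enough macrophages, and neither deep against shallow nor the Cxcl9 split could be run with a replicate left out.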
